A study of Mus musculus with 12 samples.

Results

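The 10 genes of the Hoxb cluster, *Hoxb1* to *Hoxb9* and *Hoxb13*, were followed across 4 genotypes of mouse hematopoietic stem and progenitor cells. They were taken by name from a table of 55291 genes, and all 10 have a row in it. Lin-cKit+ (LK) cells, the marrow fraction without lineage markers but with the stem cell factor receptor cKit, were purified with beads from C57BL/6 mice aged 12 months, and RNA of single mice was sequenced, with 3 libraries per genotype and 12 in all. The WT mice carry neither change. In *Kdm6bΔ/+* mice, 1 allele of *Kdm6b*, which encodes an H3K27 demethylase, was deleted by *Mx1Cre* after injection of pI:pC, a double-stranded RNA that switches the Cre on through interferon. *Asxl1Y588XTg* mice express a truncated ASXL1 protein from a transgene and were preleukemic. The *Asxl1Y588XTg Kdm6bΔ/+* mice carry both changes and bear the label Double mutation. The promoter of the transgene, and whether the groups without the deletion also carried *Mx1Cre* or received pI:pC, are not given in the sources used here.

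Hox genes encode homeodomain transcription factors that set position along the body axis in the embryo, and blood stem cells use them again. The genes of a cluster stand side by side on the same strand, are kept on by the methyltransferase KMT2A, and are held silent by H3K27me3, the mark that Polycomb complex PRC2 adds and KDM6B removes. Hox proteins bind DNA together with cofactors such as MEIS proteins. In mouse bone marrow *Hoxb5* marks long-term hematopoietic stem cells (HSCs), forced *Hoxb4* expands HSCs, and forced *Hoxb8* or *Hoxb6* keeps myeloid progenitors dividing.

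In the GENCODE vM21 annotation of mm10 the cluster runs along the plus strand of chromosome 11, from *Hoxb13* (96194316 to 96197447) and *Hoxb9* (96271457 to 96276595) over *Hoxb8* (96281905 to 96285315), *Hoxb7* (96286623 to 96290162), *Hoxb6* (96292476 to 96301569), *Hoxb5* (96303336 to 96306121), *Hoxb4* (96318267 to 96321638), *Hoxb3* (96323326 to 96347930) and *Hoxb2* (96350525 to 96354012) to *Hoxb1* (96365752 to 96368256). Antisense genes lie across part of it. *Hoxb5os*, on the minus strand from 96291024 to 96306910, spans the whole of *Hoxb6* and *Hoxb5*, but only 100 of the 2786 exonic bases of *Hoxb5* (3.59%) are shared with an exon of *Hoxb5os*, and no exonic base of *Hoxb6* is. *Hoxb3os* shares 2250 of the 4251 exonic bases of *Hoxb3* (52.9%) and 953 of the 3488 of *Hoxb2* (27.3%). The other members share no exonic base with another gene.

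The strand setting of the count is not stated. In the table, 237 of 240 genes whose exons are wholly covered by exons of the opposite strand (98.8%) had no count in any library, against 40.9% of 35618 genes of the same types with no shared exonic base. Counts on the shared bases of *Hoxb2*, *Hoxb3* and *Hoxb5* are therefore uncertain, and elsewhere reads of *Hoxb5* or *Hoxb6* cannot be told apart from unspliced antisense RNA that spans them. Stretches of 50 bases that also occur in a sense transcript of another gene made up at most 0.839% of a member's transcripts, in *Hoxb6*.

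RefSeq start sites with sequence were at hand for 3 of the 10 members. The 250 bases before the starts of *Hoxb8*, which was called in both comparisons with *Asxl1Y588XTg*, and of *Hoxb4*, which was called in none, are shown in lower case, 5′ to 3′ on the plus strand of GRCm38.p6, with matches to searched motifs in capitals. The *Hoxb8* sequence lies at chr11:96281655-96281904 and the *Hoxb4* sequence at chr11:96318017-96318266.
Hoxb8: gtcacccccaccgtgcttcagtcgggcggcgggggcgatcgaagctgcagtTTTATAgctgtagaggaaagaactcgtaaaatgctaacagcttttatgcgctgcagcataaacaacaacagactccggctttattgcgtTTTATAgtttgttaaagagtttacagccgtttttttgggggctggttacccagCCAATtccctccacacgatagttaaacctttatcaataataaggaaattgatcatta
Hoxb4: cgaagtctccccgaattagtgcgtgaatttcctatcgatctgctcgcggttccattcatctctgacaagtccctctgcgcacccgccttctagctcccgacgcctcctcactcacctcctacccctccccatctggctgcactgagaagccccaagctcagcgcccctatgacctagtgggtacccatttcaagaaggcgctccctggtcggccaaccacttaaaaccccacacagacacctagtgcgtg

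The searched motifs were the CCAAT box, the E-box CACGTG, the HOX cofactor site TGATTNAT, the MEIS site TGACAG, and the TATA box TATAAA, read on both strands, and none of the matches overlap. Upstream of *Hoxb8* there were 2 matches to TATAAA, whose leftmost bases are at -199 and -110 from the start, and 1 match to CCAAT at -57. TATAAA stood in 12.4% of the 32851 promoter sequences of this length and CCAAT in 33.9%. Upstream of *Hoxb4* there was no match to any of the 5. GC content was 44.4% upstream of *Hoxb8* and 58.0% upstream of *Hoxb4*, around a median of 52.4% over all promoters, with 12 and 14 CpG dinucleotides against a median of 6. These matches describe the letters only.

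Library totals ran from 14451522 to 23482563 counts (median 17125384.5), and Hoxb genes took between 100 and 283 counts of a library. A count of 0 allows up to 3 counts, or 0.128 to 0.208 CPM (counts scaled to a fixed library total) depending on the library, so most Hoxb genes were measured near this limit outside *Asxl1Y588XTg*. Normalized counts of *Kdm6b* were 2127 ± 252 (SD, n = 3 mice) in WT, 1499 ± 141 in *Kdm6bΔ/+*, 2253 ± 59.7 in *Asxl1Y588XTg*, and 1810 ± 141 in *Asxl1Y588XTg Kdm6bΔ/+*, with no overlap between *Kdm6bΔ/+* and WT or between the transgenic genotypes. *Kit* was detected at 5764 to 7759 normalized counts in every library. Neutrophil genes such as *S100a8* were also abundant, with a sum over 8 genes from 857700 to 1319000 normalized counts, and 0 of the 8 were called in *Asxl1Y588XTg* against WT or in *Asxl1Y588XTg Kdm6bΔ/+* against *Asxl1Y588XTg*. Y-linked transcripts were present in 0 of 3 WT, 2 of 3 *Kdm6bΔ/+*, 1 of 3 *Asxl1Y588XTg*, and 3 of 3 *Asxl1Y588XTg Kdm6bΔ/+* libraries.

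Per kilobase of exon, *Hoxb4* was the most abundant Hoxb gene in all 4 genotypes, at 2.33 ± 0.38 CPM per kb in WT, 2.19 ± 0.46 in *Kdm6bΔ/+*, 2.80 ± 0.41 in *Asxl1Y588XTg*, and 1.89 ± 0.44 in *Asxl1Y588XTg Kdm6bΔ/+* (SD, n = 3 mice). In WT every other member was at 0.153 CPM per kb or less, the value of *Hoxb3*. In WT *Hoxb3* lay above *Hoxb5*, *Hoxb2*, *Hoxb7*, and *Hoxb13* without overlap, and overlapped with *Hoxb6*, *Hoxb8*, *Hoxb1*, and *Hoxb9*. In *Asxl1Y588XTg*, *Hoxb8* came next after *Hoxb4* at 0.992 ± 0.089 CPM per kb, with no overlap with either neighbour. *Hoxb5* (0.567 ± 0.037) and *Hoxb6* (0.556 ± 0.040) followed with overlapping ranges, then *Hoxb3* (0.394 ± 0.045) and *Hoxb9* (0.362 ± 0.142), which also overlapped. In *Asxl1Y588XTg Kdm6bΔ/+*, *Hoxb3* again had the next highest mean after *Hoxb4*, at 0.304 ± 0.094, and *Hoxb5* followed at 0.179 ± 0.096 with an overlapping range. Length here means all exonic bases, of which 2001 of 4251 in *Hoxb3* and 2535 of 3488 in *Hoxb2* are free of antisense exons. If reads on shared bases were not counted, the levels of both genes are understated. The place of *Hoxb3* in each order, and whether it overlaps with *Hoxb8*, *Hoxb5*, or *Hoxb6*, is therefore uncertain.

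**Figure D1:**
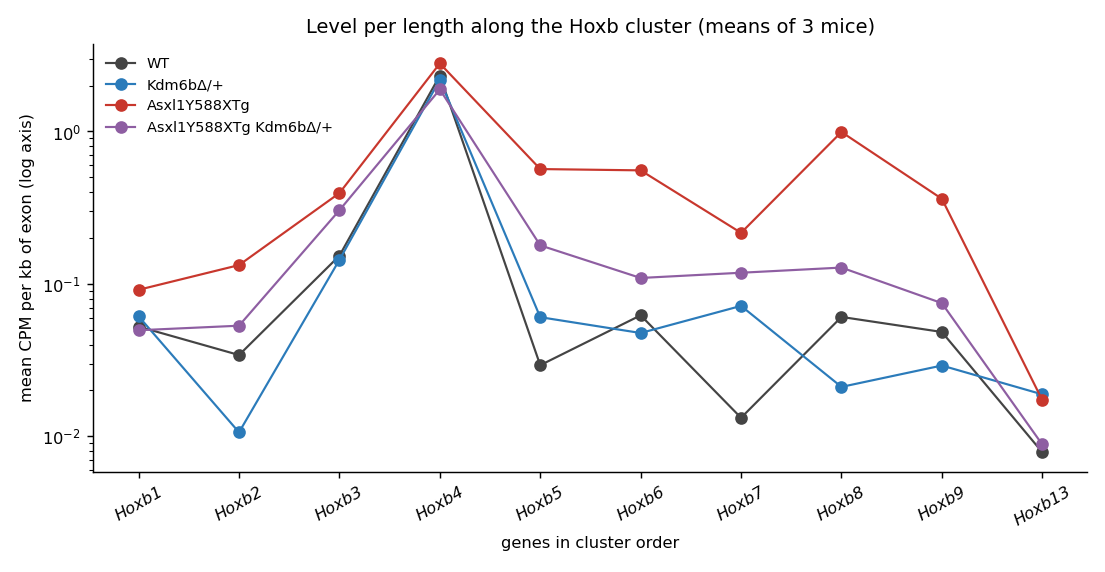
Mean level of each Hoxb gene in cluster order, in CPM per kb of exon on a log axis, with 1 line per genotype and each point a mean of 3 mice. The lines nearly meet at *Hoxb4*, and *Asxl1Y588XTg* is the highest line at every gene except *Hoxb13*, with 0.992 CPM per kb at *Hoxb8* against 0.0607 in WT.

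To examine how the transgene changed the cluster, *Asxl1Y588XTg* was compared with WT LK cells. *Hoxb8* and *Hoxb5* rose in *Asxl1Y588XTg*. *Hoxb6* and *Hoxb3* had higher counts in every *Asxl1Y588XTg* library without passing the test, as did *Hoxb7* and *Hoxb9*, which were too low to be tested, and the genotypes overlapped for *Hoxb4*. Of all genes tested, 1.58% were called higher in this comparison, that is with an adjusted p under 0.05 and a fold change above 1.5, and 10.5% were higher with no overlap between the 3 and 3 libraries. Among the 10 Hoxb genes, 6 were higher with no overlap, 5 were expressed enough to be tested, and 2 were called, *Hoxb8* and *Hoxb5*. The 6 include *Hoxb7* and *Hoxb9*, which are not among the genes tested, and no share without overlap is given for genes below the filter. *Hoxb5*, *Hoxb6*, and *Hoxb8* passed the expression filter only through the *Asxl1Y588XTg* libraries, so that their difference is partly built into the selection, and counts over the tested members are not evidence for it.

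*Hoxb8*, which cooperates with interleukin 3 in a classic mouse myeloid leukemia, was counted 1, 3, and 4 times in WT mice and 41, 45, and 48 times in *Asxl1Y588XTg* mice. Every *Asxl1Y588XTg* library thus lay about an order of magnitude above every WT library. The ratio of the summed counts, scaled for library size, was 16.6 (95% interval 8.17 to 39.2), where the interval covers counting error only. The log2 fold change was 3.97 (standard error 0.57, adjusted p = 0.00835), where adjusted p-values of edgeR are Benjamini-Hochberg values of its quasi-likelihood test throughout. *Hoxb8* stayed past the threshold in all 6 fits that left out 1 library, with log2 fold changes from 3.53 to 4.39 and edgeR adjusted p-values from 0.0114 to 0.0472. Without the *Asxl1Y588XTg* library that has Y-linked transcripts, replicate 2, the log2 fold change was again 3.97 (edgeR adjusted p = 0.0442).

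*Hoxb5* had 0, 1, and 3 counts in WT and 25, 29, and 27 in *Asxl1Y588XTg*, again without overlap. The ratio of summed counts was 20.03 (95% interval 7.53 to 75.3), and the log2 fold change was 4.18 (standard error 0.83, edgeR adjusted p = 0.0402). The call was lost in 5 of 6 repeats with a single mouse removed. The highest edgeR adjusted p-value, 0.162, came without *Asxl1Y588XTg* replicate 2, the library with Y-linked transcripts. The call was kept only without WT replicate 1, at 0.0235. The log2 fold change stayed between 3.58, without WT replicate 1, and 5.44, without WT replicate 3. The antisense *Hoxb5os* had 0, 2, and 3 counts in WT and 7, 5, and 11 in *Asxl1Y588XTg*, too few for the expression filter. Its summed counts were 5 in WT and 23 in *Asxl1Y588XTg*, beside 4 and 81 for *Hoxb5*. How far antisense RNA contributes to the counts of *Hoxb5* was not tested.

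*Hoxb6*, which lies within the span of *Hoxb5os*, had 0, 3, and 3 counts in WT and 20, 19, and 17 in *Asxl1Y588XTg*. The genotypes were separate, with a ratio of 9.23 (95% interval 3.99 to 26.2), but the log2 fold change of 3.09 (standard error 0.86) had an edgeR adjusted p of 0.154 and did not pass. It passed with DESeq2 fitted to all 4 genotypes (adjusted p = 0.0264) and in no other alternative. *Hoxb9*, at the 5′ end of the main group of genes, had 6, 0, and 1 counts in WT and 17, 22, and 9 in *Asxl1Y588XTg*, a ratio of 6.78 (95% interval 3.05 to 17.8). *Hoxb7* had 0, 0, and 1 against 3, 4, and 10, a ratio of 16.8 (95% interval 2.64 to 703). Neither passed the expression filter, and in a fit of all genes with at least 1 count their edgeR adjusted p-values were 0.161 and 0.500. That fit called the same 2 members, *Hoxb8* and *Hoxb5*, with 1.79% of all genes called higher.

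**Figure D2:**
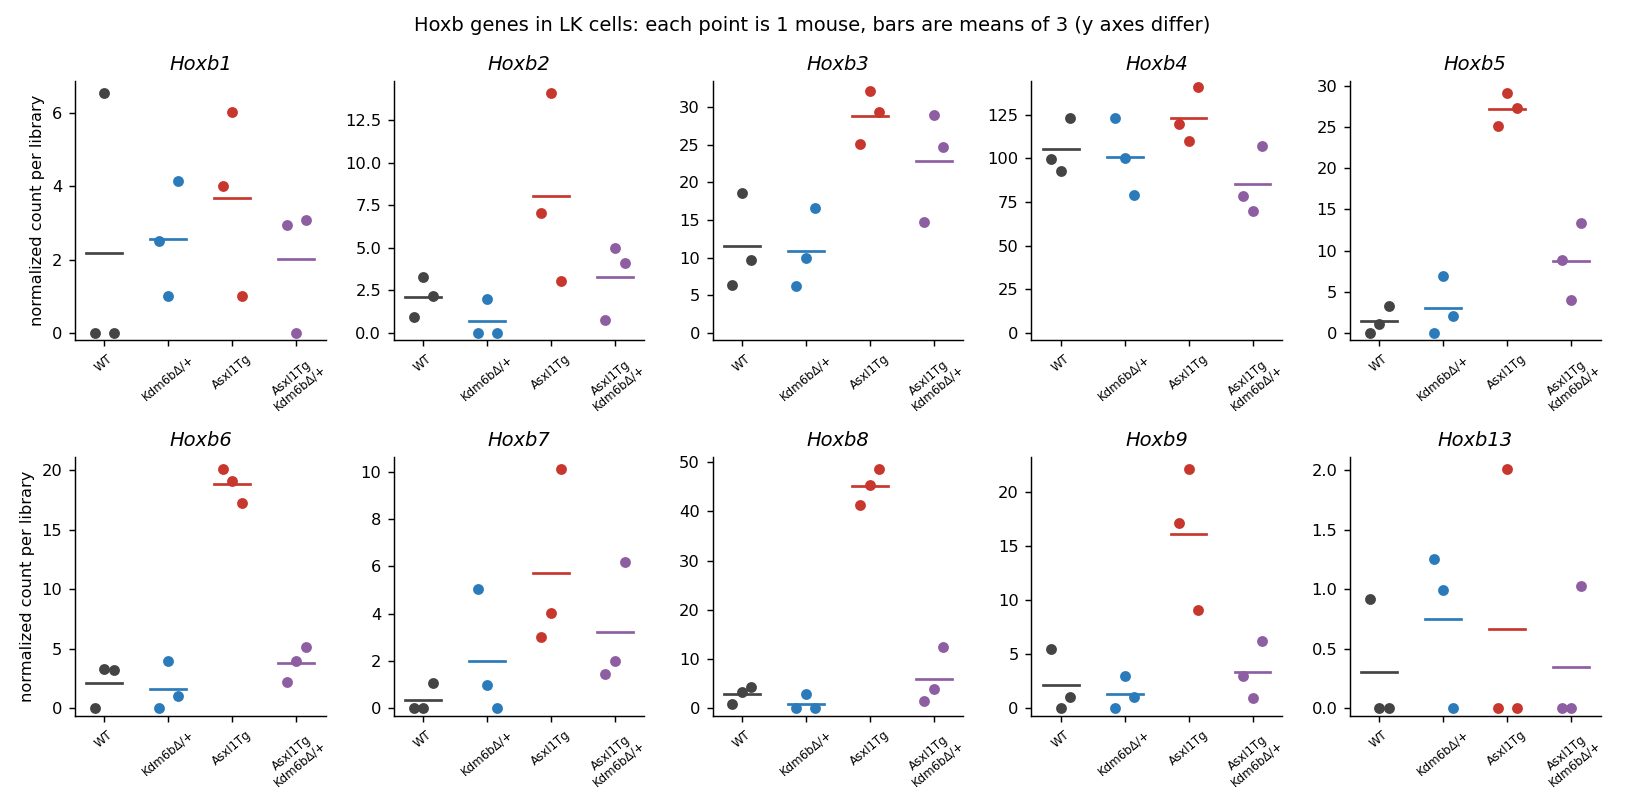
Normalized counts of each Hoxb gene in the 12 libraries, where each point is 1 mouse, each bar the mean of 3, Asxl1Tg stands for *Asxl1Y588XTg*, and the y axes differ between panels. For *Hoxb8* the *Asxl1Y588XTg* mice sit between 41.2 and 48.6 and all other mice at 12.4 or lower, whereas for *Hoxb4* the genotypes overlap, except that all 3 *Asxl1Y588XTg* mice lie above the 3 mice with both changes.

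On the 3′ side, *Hoxb4* had 109, 85, and 115 counts in WT and 119, 109, and 139 in *Asxl1Y588XTg*, and the libraries overlapped. Its log2 fold change was 0.23 with a 95% interval from -0.27 to 0.73 (edgeR adjusted p = 0.862). *Hoxb3*, which acts with *Hoxb4* in blood progenitors, had 7, 17, and 9 counts in WT and 25, 32, and 29 in *Asxl1Y588XTg*. The log2 fold change of *Hoxb3* was 1.32 (standard error 0.52, edgeR adjusted p = 0.428), and because 52.9% of its exonic bases are shared with *Hoxb3os*, this count is uncertain. *Hoxb3os* itself had 4, 4, and 2 counts in WT and 14, 6, and 2 in *Asxl1Y588XTg*. *Hoxb2* and *Hoxb1*, genes of the embryonic hindbrain, had at most 14 counts in any library. The summed counts of *Hoxb2* were 6 in WT and 24 in *Asxl1Y588XTg*, a ratio of 3.96 (95% interval 1.58 to 11.8), with overlapping libraries and an uncertain count because of *Hoxb3os*, and those of *Hoxb1* were 6 and 11, a ratio of 1.81 (95% interval 0.615 to 5.97). *Hoxb13*, a gene of the prostate and tail, had at most 2 counts.

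The makeup of Hoxb counts restates these differences. *Hoxb5* to *Hoxb9* together held 5.60% to 8.70% of the Hoxb counts in WT and 39.2% to 42.2% in *Asxl1Y588XTg*. Over the 3 libraries these were 26 of 381 counts and 336 of 826. *Hoxb4* alone held 72.0% to 87.2% in WT and 38.7% to 49.1% in *Asxl1Y588XTg*. *Hoxb5*, *Hoxb6*, and *Hoxb8* passed the filter only through the *Asxl1Y588XTg* libraries, so these shares are no further evidence for their rise. The totals include *Hoxb3* and *Hoxb2*, whose counts are uncertain, and so the shares are uncertain too.

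**Figure D3:**
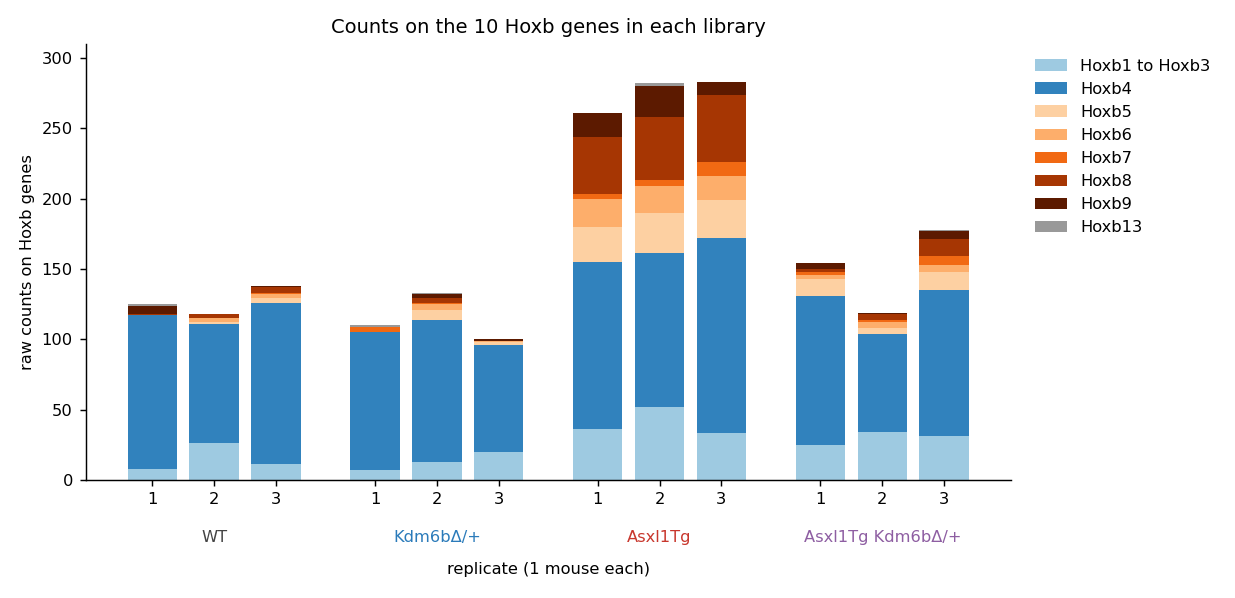
Raw counts on Hoxb genes stacked by gene in each of the 12 libraries (Asxl1Tg stands for *Asxl1Y588XTg*), with *Hoxb1* to *Hoxb4* in blue and *Hoxb5* to *Hoxb9* in orange and brown. The blue part is 96 to 126 counts high in WT and *Kdm6bΔ/+*, 155 to 172 in *Asxl1Y588XTg*, and 104 to 135 in *Asxl1Y588XTg Kdm6bΔ/+*, and the orange part reaches 106 to 119 counts in *Asxl1Y588XTg* against 4 to 18 in WT and *Kdm6bΔ/+* and 15 to 42 in *Asxl1Y588XTg Kdm6bΔ/+*.

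Markers of HSCs moved in the same libraries. Of 15 such markers, a list chosen with earlier results of these data known, 11 were called higher in *Asxl1Y588XTg* against WT. Among them were *Trim47* (log2 fold change 3.17), *Procr*, the endothelial protein C receptor (2.97), and *Slamf1*, which encodes CD150 (2.01). Of all genes tested, 1.58% were called higher. Every marker was higher with no overlap, as were 10.5% of all genes tested. The median over the 15 was 2.18, beside -0.01 over all genes tested. Their summed level was 2057 to 2831 normalized counts in WT and 6744 to 11650 in *Asxl1Y588XTg*, and none of the 15 was at 0 throughout. In bulk RNA, more HSCs among the LK cells and more Hoxb RNA per cell cannot be told apart. For each 1000 counts on these markers there were 2.80 to 4.53 counts on *Hoxb5* to *Hoxb9* in WT and 10.3 to 16.7 in *Asxl1Y588XTg*. Those on *Hoxb4* went from between 43.5 and 45.1 to between 9.41 and 20.9. These ratios are no test of either reading. *Hoxb5*, *Hoxb6*, and *Hoxb8* passed the filter only through the *Asxl1Y588XTg* libraries, and single markers rose unequally, with log2 fold changes from 1.26 (*Hlf*) to 3.17 (*Trim47*). Megakaryocyte markers also had a higher sum, 3903 to 9277 against 2354 to 2984 normalized counts, without a called gene among 6 tested of 8, and none of the 8 at 0 throughout. The part of either list in the result was not tested. Of 13 progenitor markers only *Gata2* was called, with a log2 fold change of 0.73, and the marker lists for erythroid, monocytic, endothelial or stromal, B, and T or NK cells had 0 called genes in this comparison.

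To examine what the deletion did on the transgenic background, *Asxl1Y588XTg Kdm6bΔ/+* was compared with *Asxl1Y588XTg*. *Hoxb8* and *Hoxb6* fell, *Hoxb5*, *Hoxb9*, and *Hoxb4* were lower without passing or without being tested, and *Hoxb3* overlapped. This comparison uses the same *Asxl1Y588XTg* libraries as the previous one, so the rise there and the fall here are not independent of each other. Of all genes tested, 1.59% were called lower and 14.1% were lower with no overlap, against 2 and 5 of the 10 Hoxb genes. The 5 include *Hoxb9*, which is not among the genes tested.

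*Hoxb8* had 2, 4, and 12 counts in the *Asxl1Y588XTg Kdm6bΔ/+* libraries, all below the 41 to 48 of *Asxl1Y588XTg*. The ratio of summed counts was 0.120 (95% interval 0.0691 to 0.197) and the log2 fold change was -2.96 (standard error 0.54, edgeR adjusted p = 0.0268). *Hoxb6* had 3, 4, and 5 counts against 17 to 20, and its log2 fold change was -2.31 (standard error 0.46, edgeR adjusted p = 0.0326). Single libraries decided both calls, and the log2 fold change ran from -4.04 (without *Asxl1Y588XTg Kdm6bΔ/+* replicate 3) to -2.42 for *Hoxb8* and from -2.58 to -1.99 for *Hoxb6*. *Hoxb8* lost its call without *Asxl1Y588XTg* replicate 3, *Asxl1Y588XTg Kdm6bΔ/+* replicate 1, or *Asxl1Y588XTg Kdm6bΔ/+* replicate 2, with edgeR adjusted p-values of 0.0651, 0.0689, and 0.142, and *Hoxb6* kept it only without *Asxl1Y588XTg Kdm6bΔ/+* replicate 3, at 0.0445. All 3 libraries with both changes have Y-linked transcripts and only 1 of the *Asxl1Y588XTg* libraries has, and with a term for these transcripts in a fit of all 12 libraries the log2 fold changes were -2.61 for *Hoxb8* and -1.92 for *Hoxb6*, with edgeR adjusted p-values of 0.329 and 0.687. The edgeR fit of all 12 libraries without that term called no Hoxb gene in this comparison either.

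*Hoxb5* had 12, 4, and 13 counts with both changes, below the 25 to 29 of *Asxl1Y588XTg*. Its log2 fold change was -1.61 (standard error 0.42, edgeR adjusted p = 0.0863), and it passed only in the fit without an expression filter (edgeR adjusted p = 0.0112). *Hoxb9* had 4, 1, and 6 counts against 9 to 22, a ratio of 0.205 (95% interval 0.0960 to 0.400), and it too passed in the fit without the filter (edgeR adjusted p = 0.00738), where 2.03% of all genes were called lower. *Hoxb4* had 106, 70, and 104 counts and was lower in each library once scaled for depth, with a log2 fold change of -0.52 (95% interval -0.99 to -0.05, edgeR adjusted p = 0.268). *Hoxb3* had 20, 29, and 24 counts, close to the 25 to 32 of *Asxl1Y588XTg*, with a log2 fold change of -0.34 (95% interval -1.08 to 0.40). *Hoxb2* had 1, 5, and 4 counts against 7, 14, and 3, a ratio of 0.373 (95% interval 0.159 to 0.809) with overlapping libraries. *Hoxb5os* was lower as well, with 4, 2, and 2 counts against 7, 5, and 11. Of the 15 HSC markers, 10 were called lower in this comparison, beside 1.59% of all genes tested. Every marker was lower with no overlap, as were 14.1% of all genes tested. The median log2 fold change of the 15 was -1.39 beside a value near 0 over all genes tested (-0.0043). Their sum was 2766 to 4342 normalized counts with both changes.

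**Figure D4:**
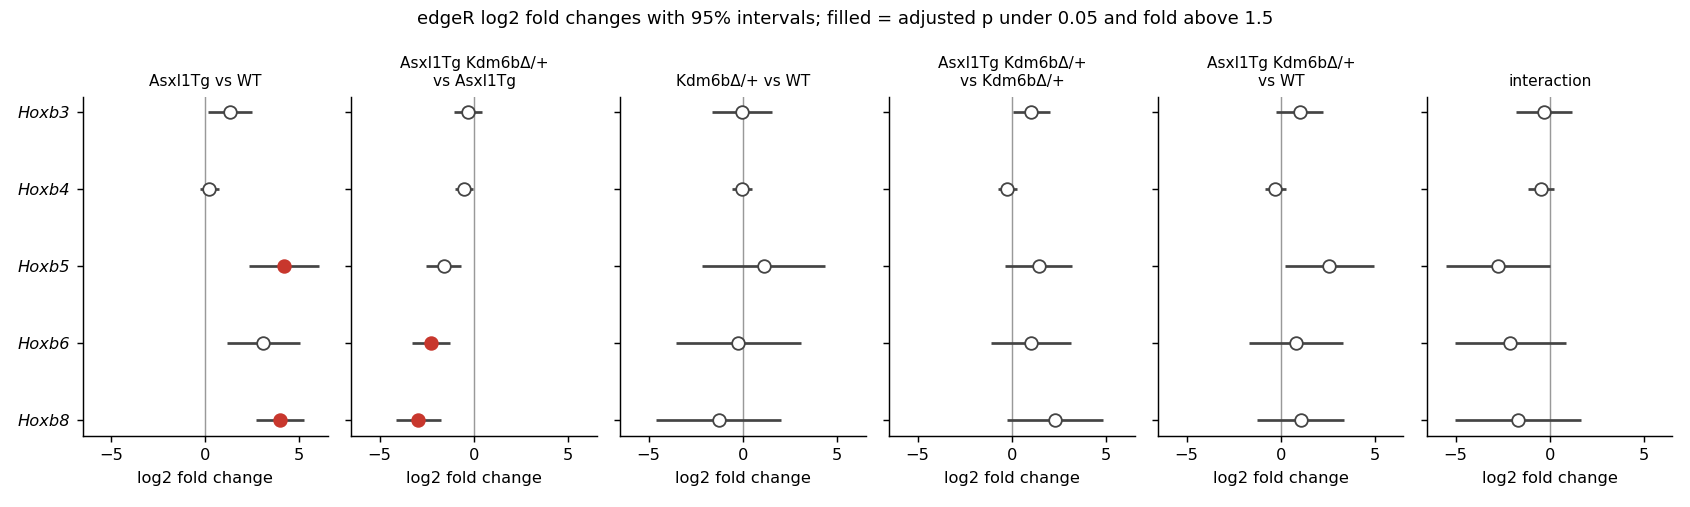
Log2 fold changes of the 5 Hoxb genes tested with 95% intervals, 1 panel per comparison (Asxl1Tg stands for *Asxl1Y588XTg*), with filled points where the adjusted p is under 0.05 and the fold change above 1.5. *Hoxb8* and *Hoxb5* are filled at 3.97 and 4.18 in the first panel, *Hoxb8* and *Hoxb6* at -2.96 and -2.31 in the second, and no point is filled in the other panels.

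Deletion of *Kdm6b* without the transgene was not followed by a called change of any Hoxb gene. In *Kdm6bΔ/+* against WT, 0.0948% of all genes tested were called in either direction and 0 of the 10 Hoxb genes, of which 0 had an unadjusted edgeR p under 0.05 and 0 were called by DESeq2. *Hoxb8* had 0, 3, and 0 counts in *Kdm6bΔ/+* (log2 fold change -1.29, 95% interval -4.61 to 2.03), *Hoxb5* had 0, 7, and 2 (1.10, 95% interval -2.16 to 4.36), and *Hoxb6* had 0, 4, and 1 (-0.24, 95% interval -3.57 to 3.09). At these counts a change of several fold in either direction was not detectable. *Hoxb4*, with 98, 101, and 76 counts, was better bounded, at -0.07 with a 95% interval from -0.61 to 0.48. *Kdm6bΔ/+* replicate 2 held 18 counts on *Hoxb5* to *Hoxb9* against 4 in each of the other 2 libraries, and 13.5% of its Hoxb counts lay there.

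The transgene on the deletion background, *Asxl1Y588XTg Kdm6bΔ/+* against *Kdm6bΔ/+*, shares no library with *Asxl1Y588XTg* against WT. Here too 0.0948% of all genes tested were called and 0 of the Hoxb genes by edgeR or DESeq2. With no overlap, 0 of the 10 Hoxb genes and 9.32% of all genes tested were higher. At that share, 0 of 10 says little about the members. The log2 fold changes were 2.28 for *Hoxb8* (95% interval -0.28 to 4.83), 1.42 for *Hoxb5* (-0.35 to 3.20), 0.997 for *Hoxb6* (-1.13 to 3.13), and 1.02 for *Hoxb3* (0.03 to 2.01), the last with an unadjusted p of 0.0443 and an edgeR adjusted p of 0.393. With 1 library left out they ran from 1.19, without *Asxl1Y588XTg Kdm6bΔ/+* replicate 3, to 5.56, without *Kdm6bΔ/+* replicate 2, for *Hoxb8*. They ran from 0.928 to 2.83 for *Hoxb5* and from 0.516 to 2.46 for *Hoxb6*, lowest without *Kdm6bΔ/+* replicate 1 and highest without *Kdm6bΔ/+* replicate 2 for both.

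Against WT, *Asxl1Y588XTg Kdm6bΔ/+* cells also had 0 called Hoxb genes by edgeR or DESeq2, with 0.215% of all genes called. *Hoxb5* and *Hoxb7*, the latter not among the genes tested, were higher with no overlap, as were 6.68% of all genes tested. *Hoxb5* had 12, 4, and 13 counts against 0, 1, and 3, a ratio of 6.42 (95% interval 2.25 to 25.1), and its log2 fold change of 2.57 (standard error 1.06) had an unadjusted p of 0.0344 and an edgeR adjusted p of 0.709. *Hoxb8* differed less, at 2, 4, and 12 counts against 1, 3, and 4, with a log2 fold change of 1.04 (95% interval -1.28 to 3.36). *Hoxb5* to *Hoxb9* held 12.6% to 23.6% of the Hoxb counts with both changes, above every WT library and below every *Asxl1Y588XTg* library, and 80 of 451 counts in all. Between these genotypes the presence of Y-linked transcripts and the genotype cannot be told apart.

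Whether the deletion acted differently on the 2 backgrounds was tested with the interaction over all 12 libraries. No Hoxb gene passed, and 0.0126% of all genes did. The interaction of *Hoxb5* was -2.76 on the log2 scale (95% interval -5.52 to 0.005, unadjusted p = 0.0503, edgeR adjusted p = 0.725). For *Hoxb8* it was -1.69 (95% interval -5.04 to 1.67) and for *Hoxb6* -2.09 (95% interval -5.03 to 0.85). A fall on the transgenic background that differs from the effect on the WT background was thus not shown for any of the members.

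Genes around and above the cluster mostly did not pass. Of 11 flanking genes on either side, such as *Skap1* and *Snx11*, 7 were tested and 0 were called in any comparison, and their summed level stayed between 6311 and 7146 normalized counts in every library. Of the cofactors, 8 of 9 were tested and *Meis1*, a TALE partner of Hox proteins and an HSC regulator, was the only gene called. Its log2 fold change was 1.26 (standard error 0.13, edgeR adjusted p = 0.00266) in *Asxl1Y588XTg* against WT and -1.07 (standard error 0.11, edgeR adjusted p = 0.00265) in *Asxl1Y588XTg Kdm6bΔ/+* against *Asxl1Y588XTg*. Of 24 regulators of Hox genes, such as *Kmt2a*, *Ezh2*, and *Dot1l*, 21 were tested and 0 were called in these 2 comparisons. *Mllt3* (log2 fold changes 0.61 and -0.47) and *Cbx7* (0.74 and -0.34) were higher with no overlap in the first and lower with no overlap in the second. So were 10.5% and 14.1% of all genes tested. In the opposite directions, *Ezh2* and *Eed* were lower with no overlap in the first, and *Usf2* was higher in the second. In *Asxl1Y588XTg Kdm6bΔ/+* against WT, where Y-linked transcripts differ, the X-linked demethylase gene *Kdm6a* was called lower.

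No gene of the other Hox clusters was called, but several Hoxa genes moved in the same directions. Of 11 Hoxa genes, 6 were tested and 0 were called in any comparison, with median log2 fold changes of 0.42 in *Asxl1Y588XTg* against WT and -0.90 in *Asxl1Y588XTg Kdm6bΔ/+* against *Asxl1Y588XTg*. *Hoxa9*, the most studied Hox gene of myeloid leukemia, was at 186 ± 3.01 normalized counts in WT and 198 ± 29.5 in *Asxl1Y588XTg*, and its log2 fold change was 0.09. *Hoxa10* had a log2 fold change of 0.88 and *Hoxa5* of 0.89, with edgeR adjusted p-values of 0.491 and 0.413. Both were higher with no overlap, as were 10.5% of all genes tested. In *Asxl1Y588XTg Kdm6bΔ/+* against *Asxl1Y588XTg*, *Hoxa3*, *Hoxa4*, *Hoxa5*, and *Hoxa10* were lower with no overlap, as were 14.1% of all genes tested. *Hoxa7* and *Hoxa9* overlapped. Log2 fold changes there were -1.09 for *Hoxa5* and -1.18 for *Hoxa10* (edgeR adjusted p = 0.0882 and 0.0938). None of the 9 Hoxc or 9 Hoxd genes was expressed enough to be tested. Of a list of 10 genes in or beside the Hoxb cluster, mostly noncoding, 5 were in the table and none passed the filter. Another antisense gene, *Gm11536* within the span of *Hoxb3*, was not on that list and had at most 3 counts in any library. *Mir10a*, whose host region lies before *Hoxb4*, had 2, 0, and 1 counts in *Asxl1Y588XTg* and 0 in the other 9 libraries.

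Across the 12 libraries, the genes whose log2 CPM followed *Hoxb5* most closely included *Cdc42bpb* (Pearson r = 0.955), *Mink1* (0.949), *Vdr* (0.940), and *Ehd3* (0.937), among 9892 genes whose normalized counts averaged 100 or more. For *Hoxb4* they were *Ube2o* (0.881), *Slc7a6os* (0.871), *Klf8* (0.862), *Tef* (0.846), and *Casp6* (0.846). The list for *Hoxb8* was added after its values were seen, and held *Inppl1* (0.969), *Dapp1* (0.957), *Tek*, the angiopoietin receptor of HSCs (0.957), *Heg1* (0.953), and *Selp* (0.947). No gene named here stood in more than 1 of the 3 lists. These values describe libraries that share their depth and genotype, and for *Hoxb5* and *Hoxb8* they rest on the *Asxl1Y588XTg* libraries being high.

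**Figure D5:**
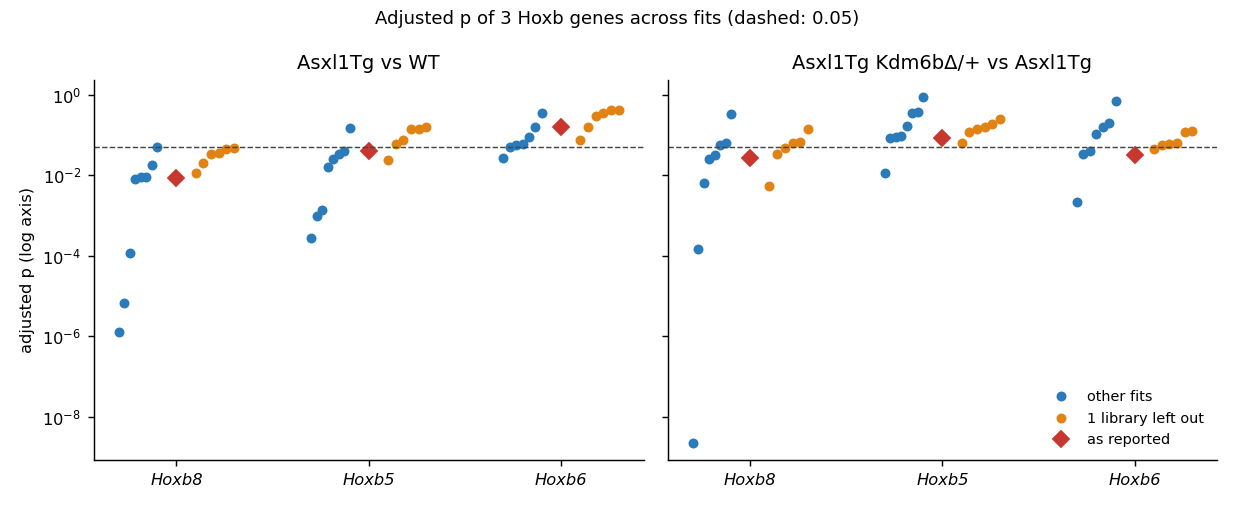
Adjusted p of *Hoxb8*, *Hoxb5*, and *Hoxb6* on a log axis in the reported fit, in the other fits, and with 1 library left out, for *Asxl1Y588XTg* against WT (left) and *Asxl1Y588XTg Kdm6bΔ/+* against *Asxl1Y588XTg* (right), where the dashed line marks 0.05 and Asxl1Tg stands for *Asxl1Y588XTg*. *Hoxb8* lies under the line in every fit on the left, up to 0.0494, and on both sides of it on the right, up to 0.329.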

How the data were processed

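LK cells of 12 mice were profiled by RNA-Seq, with 3 libraries per genotype assigned by the sample labels. The authors trimmed the reads with Trimmomatic, aligned them to mm10 with STAR, assigned them to genes with HTSeq, and deposited the raw counts of 55291 genes without normalization. The methods name a KAPA stranded kit with ribosomal depletion and the labels an NEB Ultra kit, and the annotation and strand setting are not given in the sources used here. From the deposited counts, edgeR 4.0.16 in R 4.3.3 tested the 15825 genes that passed filterByExpr over the 4 genotypes, with TMM scaling, a robust quasi-likelihood fit to the 6 libraries compared (all 12 for the interaction), and Benjamini-Hochberg adjustment over all genes tested. A call needs an adjusted p under 0.05 together with a fold change above 1.5. The fit was tested on simulated counts. Normalized counts were scaled by TMM over all 12 libraries to their mean total. Ratios of summed counts carry exact 95% binomial intervals for counting error only. An exact two-sided permutation test of 3 against 3 libraries cannot go below 0.1, so none was run.

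The members and gene lists were chosen with earlier results of these data known. All 10 members are named, listed genes are given by counts with values for called genes and for genes overlapping a member, and of the 5 genes most correlated with *Hoxb5* and with *Hoxb4* all are named except those not reported here; other listed genes that are named serve as examples chosen after their values were seen. Positions come from GENCODE vM21 (53292 of the gene names matched) and promoters from RefSeq. DESeq2 1.42.0, other fits, scalings and filters, a replicate block, and leaving out each library were the alternatives. Replicates were separate mice and differed by more than sampling noise (chi-square of 7.76 to 32.1 per gene).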

Additional observations from a re-analysis of the deposited data

How the results depend on the processing

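The number of Hoxb genes called in *Asxl1Y588XTg* against WT was 2. It was 3 with DESeq2 on all 4 genotypes, which added *Hoxb6*, and 1 with the replicate number as a block (*Hoxb8*, edgeR adjusted p = 0.0494, with *Hoxb5* at 0.146). It ranged from 1 to 2 when 1 library was left out. In *Asxl1Y588XTg Kdm6bΔ/+* against *Asxl1Y588XTg* the number was also 2. It was 3 among the same 5 genes without the expression filter, which added *Hoxb5* (and called *Hoxb9* too), 0 with edgeR on all 4 genotypes, 0 with a term for Y-linked transcripts added to that fit, 0 with the replicate block, 1 with DESeq2 on all 4 genotypes, 1 with a mean count of at least 10 (where *Hoxb6* was not tested), and 0 to 2 with 1 library left out. Fewer libraries or genes were tested in some of these, and otherwise the cause was not tested. Replicate numbers did not pair the mice, with a median correlation of deviations of -0.042 over 18 pairs with the same number (-0.116 to 0.078) against -0.135 to 0.178 over 36 others.

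Of 434 values of single genes under the alternatives, 396 kept direction and side of the threshold, 21 lost it, 2 passed it anew, and 15 changed sign, and the last were all in comparisons without a call. In *Kdm6bΔ/+* against WT with the term for Y-linked transcripts, the log2 fold change was 0.016 for *Hoxb4* and 0.094 for *Hoxb6*. With 1 library left out it ran from -0.47 to 0.46 for *Hoxb3*, -0.23 to 0.094 for *Hoxb4*, -0.31 to 2.35 for *Hoxb5*, and -1.70 to 0.25 for *Hoxb6*. In *Asxl1Y588XTg Kdm6bΔ/+* against WT, *Hoxb8* ran from -0.049 to 1.53, and the interaction from -2.76 to 1.57 for *Hoxb8* and -0.82 to 0.15 for *Hoxb3*. Where leaving out a library left 2 mice in a group, the spread was shared with the other group. Depth limits the members outside *Asxl1Y588XTg*, where most had fewer than 10 counts in a library.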
